A study of Mus musculus with 4 samples.

Results

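Ribosomal protein genes were taken as the symbols of the feature table that start with Rpl or Rps followed by a digit or by p0, p1 or p2, leaving out the Rps6k kinases and the symbols of processed copies that contain -ps. The rule gave 85 of 31053 genes, 52 named for the large subunit and 33 for the small subunit, on 19 chromosomes, with 14 on chromosome 7 and 4 on X. Together they held 20033684 of 180628932 UMIs (unique molecular identifiers, each a captured transcript molecule) in 12546 immune cells, or 11.1%. Rpl7l1 and Rps19bp1 match the rule by name but are not proteins of the mature ribosome. Rpsa, Fau and Rack1 encode ribosomal components under other names and are outside the rule.

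A ribosome holds the proteins of its large and small subunits in fixed proportions around ribosomal RNA, and cells that grow and divide make them in great amounts. Most of their mRNAs start with a C followed by a run of pyrimidines, the 5′ terminal oligopyrimidine (TOP) tract, through which mTOR and LARP1 control their translation, so an mRNA level of these genes is not a rate of protein synthesis. A few members have a paralog of restricted expression, such as Rpl3l in muscle and Rpl10l and Rpl39l in testis, and Rps27l is a known target of p53.

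Immune cells positive for CD45 were sorted from 2 control skins of uninoculated C57BL/6 mice and from 2 skin tumors, and a droplet 3′ library was made from each. The tumors grew after subcutaneous inoculation of line 2323 into C57BL/6 mice. This line came from a tumor graft of the ktiKPP model, in which a keratin 14 promoter drives the inducible Cre that deletes p53. All tumors came from this single line, and the mice were female and male young adults. All 4 samples were digested with collagenase IV at 37 °C for 2 h before the sort. The labels do not say that the tumors or skins of a group came from separate mice, so p-values measure the spread between these samples.

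Control skins gave 3499 and 3862 cells and 2323 tumors 5176 and 2258, of which filters set to the stated minima of the study left 2981, 3089, 4784 and 1994 cells with a median of 10610 to 13361.5 UMIs. These are counts of the filters as applied here and differ from the counts that the study lists. Only 23 of 14772 barcodes occurred in more than 1 library. Cells were assigned to 15 types by minimum UMIs of fixed markers, without use of the ribosomal protein genes, and 7852 of 12848 kept cells (61.1%) entered exactly 1 such marker gate. Of 15 markers that the gates did not use, 11 were highest in their own gate, and the exceptions were Cd24a in Langerhans cells, Sirpa and Flt3 in cDC2 and Fcer1g in DETC, the dendritic epidermal T cells. All levels are shares of the UMIs, so a rise of the members and a fall of other genes cannot be told apart.

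Starts of 65 members were found among the RefSeq promoters of GRCm38.p6, and a few are shown here because the results turn on these genes. Letters run from 20 bases before to 10 bases after the annotated start on the transcribed strand, so the start is letter 21. Capitals mark a C followed by at least 4 letters that are each C or T, beginning within 2 bases of the start.
Rps24: acgcccccgcgctggggtCCTTCCTTgcgc
Rpl35: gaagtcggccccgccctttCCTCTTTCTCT
Rps27: acaggatttccgctttcgCTCCTTTCCggc
Rps27rt: ggttaagaacttatcccttgCTTTCCggcg
Rps27l: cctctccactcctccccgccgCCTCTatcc
Rpl37a: gtcacttccgctcgccggtctaaaaccgcg
Rpl22l1: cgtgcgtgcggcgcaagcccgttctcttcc
Rpl10: ctatggttgttacagtggaagataggccgc
These windows lie at chr14:24490658-24490687 on the plus strand for Rps24, chr2:39005122-39005151 on the minus strand for Rpl35, chr3:90213639-90213668 on the minus strand for Rps27 and chr9:114982730-114982759 on the minus strand for Rps27rt. Those of Rps27l, Rpl37a, Rpl22l1 and Rpl10 lie on the plus strand at chr9:66946066-66946095, chr1:72711240-72711269, chr3:28805488-28805517 and chrX:74270796-74270825. Each covers the proximal promoter and the first bases of the first exon. Rps24 and Rps27l have another annotated start, which is not shown. In the count at the start itself the run could begin earlier, as in Rps27 and Rpl35. A tract ran on from a C at the start in 14 of 65 members (21.5%), against 813 of 27025 genes (3.01%). Within 2 bases it was found in 22 members (33.8%), in 5 of 14 genes of the list of TOP companions (35.7%), which are translation factors and ribosome partners, in 8 of 69 mitochondrial ribosomal proteins (11.6%) and in 2863 of all 27025 genes (10.6%). No match says only that these letters are not within 2 bases of the annotated start.

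The most abundant members were the small subunit proteins Rps29 with 645016 UMIs and Rps24 with 505987, the stalk protein Rplp1 with 465856, and the large subunit proteins Rpl37a with 435462 and Rpl41 with 422199. These 5 held 12.4% of the members' UMIs. The group was even below them, with 73 members above 100000 UMIs. Only 5 had fewer than 10000 UMIs. They were Rpl7l1 with 6352, Rps19bp1 with 3982, Rpl39l with 541, Rpl3l with 196 and Rpl10l with 0, which allows a level of up to 0.0166 UMIs per 1000000 UMIs (CPM) over all immune cells. The related paralogs Rpl26l1 and Rps4l were not among the features analysed.

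The summed share of the members differed severalfold between cell types. It was highest in cDC1, the cross-presenting dendritic cells, at 17.2% and 14.8% of UMIs in control skins and 18.8% and 16.0% in 2323 tumors. CD8 T cells followed with 15.3% and 13.7% in control skins and 19.9% and 15.6% in tumors, and NK cells with 15.8% and 14.9% in control skins and 18.4% and 14.0% in tumors. Macrophages, the most numerous gate, stood at 11.6% and 9.49% in control skins and 11.7% and 9.41% in tumors. DETC, the resident γδT cells of the epidermis, were at 8.69% and 7.36% in control skins. Neutrophils, short-lived granulocytes that synthesize little protein once mature, were lowest at 2.32% and 3.42% in control skins and 4.39% and 2.47% in tumors. The neutrophil range did not touch that of any other gate. The types from cDC1 to Tregs overlapped each other in range, so their order by mean (16.7% in cDC1, 16.1% in CD8 T cells, 15.8% in NK cells, 15.1% in dermal γδT cells, 14.8% in cDC2, 14.0% in CD4 T cells and 13.1% in Tregs) is not larger than the spread between libraries.

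**Figure D1:**
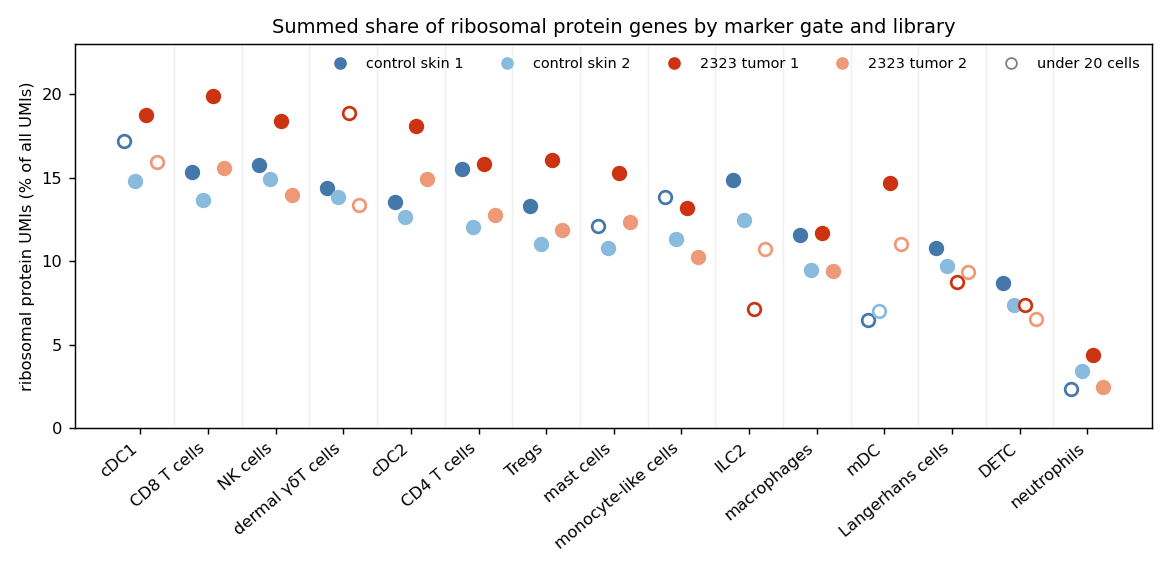
Ribosomal protein UMIs as percent of all UMIs (y axis) in each of 15 marker gates (x axis) and each of 4 libraries, open circles for libraries with under 20 cells of the gate. Neutrophils sit below 5% in every library, and tumor replicate 1 is the highest library in most gates, with 19.9% in CD8 T cells and 18.1% in cDC2.

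Single cells showed a low tail beside these means. Of 12546 immune cells, 2815 (22.4%) had less than 3% of their UMIs in ribosomal protein genes, with 27.4% and 24.1% of cells in control skins and 19.7% and 18.9% in tumors. In neutrophils 81.1% of cells lay in this tail, against 1.51% of DETC, 2.52% of CD8 T cells and 3.25% of macrophages. In ILC2, the type 2 innate lymphoid cells, it held 31.4% of cells, and 60.0% in each tumor library. NK cells had 18.3% there, and cells outside every gate 49.2%. Cells of the tail had a median of 3589 UMIs against 14501 in the rest, 4.43% against 1.84% mitochondrial UMIs, and 3.42% against 1.55% of UMIs in Malat1, a nuclear RNA. The neutrophils of the tail had a mitochondrial median of 0.0990%. The part of damaged or empty droplets in these shares was not tested.

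**Figure D2:**
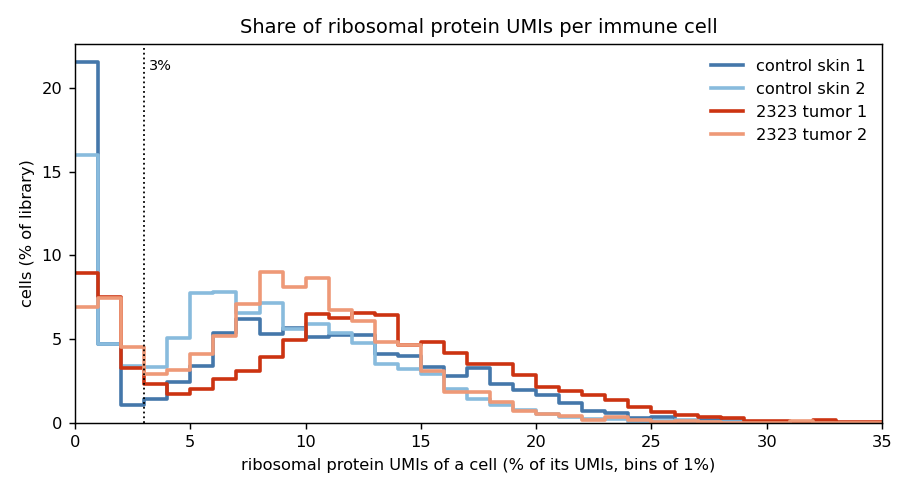
Distribution of the ribosomal protein share of a cell (x axis, percent of its UMIs in bins of 1%) in each library (y axis, percent of the library's immune cells), with the dotted line at 3%. Every library has a low group of cells beside a broad one, and the low group is larger in control skins (27.4% and 24.1% below 3%) than in tumors (19.7% and 18.9%).

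Between tumor and control skin, the summed share did not overlap in CD8 T cells and cDC2 among the 6 gates with at least 20 cells in each library. In CD8 T cells, the cytotoxic T cells, it was 14.5% ± 1.17 in control skins and 17.7% ± 3.05 in tumors (SD, n = 2 each), 3.24 points or 0.29 on the log2 scale higher. In cDC2, dendritic cells that present antigen to CD4 T cells, it was 13.1% ± 0.614 in control skins and 16.5% ± 2.23 in tumors, 3.42 points or 0.33 on the log2 scale higher. In macrophages it was 10.5% ± 1.48 and 10.5% ± 1.60, a log2 ratio of 0.0015. The difference in CD8 T cells and cDC2 was largest in tumor replicate 1, without which the log2 ratio was 0.10 and 0.19, and an exact permutation test of 2 against 2 libraries cannot give a two-sided p below 0.333. Replicate 1 lay above replicate 2 in 13 of 15 gates among control skins and in 13 of 15 among tumors, so a spread between libraries ran through nearly all cell types.

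The fraction of dividing cells also differed between the libraries. The share of CD8 T cells with at least 5 UMIs of Mki67, Top2a and Stmn1 was 15.9% and 13.5% in control skins against 43.9% and 20.5% in tumors. Among the other CD8 T cells the summed share of ribosomal protein UMIs was 15.6% and 14.1% in control skins against 19.9% and 14.6% in tumors, which overlapped. The 14.6% of tumor replicate 2 came from 31 cells. Dividing CD8 T cells were not above the others, at 14.5% in control skin replicate 1 and 19.8% in tumor replicate 1. Control skin replicate 2 and tumor replicate 2 had only 7 and 8 dividing CD8 T cells. In cDC2 8.16% and 5.00% of cells in control skins and 20.4% and 11.9% in tumors were dividing by this measure, and without them the shares were 13.5% and 12.5% in control skins and 18.0% and 14.6% in tumors, without overlap. UMIs of the macrophage genes C1qa, C1qb and C1qc in the CD8 T cell gate were 16.2 and 7.47 CPM in control skins and 46.3 and 84.8 CPM in tumors, and in cDC2 9.30 and 22.7 CPM against 41.9 and 51.0 CPM, beside 4066 to 7823 CPM in macrophages. Their part in the shares was not tested.

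Among the gates with few cells, mDC and ILC2 gave wider differences than CD8 T cells and cDC2. In mDC, the migratory dendritic cells, the share was 6.46% and 7.01% in control skins from 5 and 4 cells, and 14.7% and 11.1% in tumors from 39 and 8 cells. Without the cells below 3%, the control skins held 3 mDC each and stood at 9.53% and 7.58% against 14.9% and 11.1% in tumors, which moved the log2 ratio from 0.93 to 0.60. In mast cells the difference was smaller, with shares of 12.1% and 10.8% in control skins against 15.3% and 12.3% in tumors. Without the dividing cells the mast cell shares were 11.7% and 10.2% in control skins and 16.8% and 9.97% in tumors, which overlapped. ILC2 went the other way, at 14.9% and 12.5% in control skins and 7.11% and 10.7% in tumors with 15 and 10 cells. Leaving out the cells below 3% brought ILC2 to 17.3% and 14.0% in control skins and 12.4% and 15.7% in tumors, where the groups overlapped.

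Gene by gene, very few members passed the test of tumor against control skin in any gate. UMIs were summed per gate and library, the test was the quasi-likelihood test of edgeR, and p-values were adjusted by Benjamini-Hochberg over all genes of the gate at a threshold of 0.05. In CD8 T cells 1 of 82 members tested was called, while 7.85% of all genes tested were called. In cDC2 none of 82 was called, where the background was 12.5%, and 3 of 82 had an unadjusted p under 0.05. None of 82 was called in NK cells (background 3.34%), in CD4 T cells (7.36%) or in Tregs (0.975%), and none of 84 in macrophages (0.967%), with 0, 0, 1 and 0 members at an unadjusted p under 0.05. In 3 gates with at least 15 cells in each library, added after the data were seen, none of 80 was called in mast cells (background 3.83%), none of 82 in monocyte-like cells (0.161%) and none of 78 in neutrophils (0%), with 14, 0 and 1 members under 0.05 unadjusted. DESeq2 called 1 member in CD8 T cells and 0 in each of the other gates.

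In every tested gate most members lay on one side of 0. The median log2 fold change of the members was 0.14 in CD8 T cells, beside 0.07 over all genes tested, and 65 of 82 were above 0. In cDC2 it was 0.13 beside 0.05, with 63 of 82 above 0. In macrophages it was -0.18 beside 0.03, with 76 of 84 below 0, and in mast cells 0.55 beside 0.01, with 78 of 80 above 0. Tregs stood at 0.11 beside 0.01 with 66 of 82 above 0, and neutrophils at 0.26 beside 0.01 with 64 of 78 above. Monocyte-like cells stood at -0.15 beside 0.03 with 70 of 82 below 0. CD4 T cells were at -0.07 beside 0.004 with 59 of 82 below 0. NK cells were the most even, at 0.04 beside 0.02 with 52 of 82 above 0. These values follow the scaling. With total UMIs in place of TMM factors the medians were 0.26 for members and 0.19 for all genes in CD8 T cells, 0.37 and 0.29 in cDC2, 0.02 and 0.23 in macrophages, and 0.26 and -0.26 in mast cells. Relative to all genes the members stayed below in macrophages and above in CD8 T cells, cDC2 and mast cells under both scalings. In CD8 T cells this rested on single libraries. Without control skin replicate 2 the median was -0.04 beside 0.04 over all genes, with 37 of 82 above 0, and without tumor replicate 1 it was 0.02 beside 0.02. In cDC2 it was 0.05 beside 0.06 without control skin replicate 2. In macrophages and mast cells the side was kept when any 1 library was left out.

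**Figure D3:**
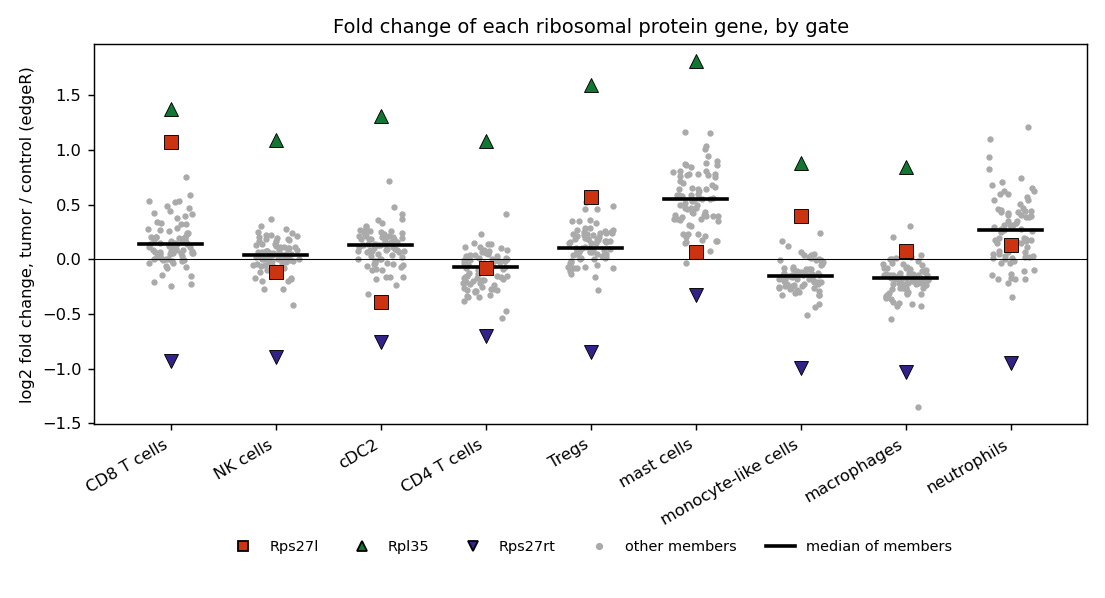
Log2 fold change of each member in 2323 tumors over control skins by edgeR (y axis) in the 9 tested gates (x axis), with the median of the members as a line and 3 members marked. Most members lie close to 0, and Rps27l in CD8 T cells (1.07) is the only member called, while Rpl35 and Rps27rt lie outside the others in most gates without being called.

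Rps27l, a paralog of Rps27 and p53 target, was the member called in CD8 T cells. It stood at 76.5 and 98.6 CPM in control skins and 209 and 182 CPM in tumors, without overlap. The log2 fold change was 1.07 (SE 0.215, adjusted p = 0.0277 by edgeR), and 1.02 (adjusted p = 0.0452) by DESeq2. Without the dividing cells it was 0.58 with an adjusted p of 0.261. Dividing CD8 T cells held 128 and 143 CPM in control skins and 271 and 288 CPM in tumors, and the others 59.0 and 84.6 CPM against 106 and 121 CPM. Both tumors lay above both control skins in each class of cells. The dividing class held only 7 cells with 23 UMIs of Rps27l in control skin replicate 2. In tumor replicate 2 it held 8 cells with 51 UMIs. How far dividing cells make up the difference was not tested. Leaving out control skin replicate 1, control skin replicate 2 or tumor replicate 1 ended the call, with adjusted p of 0.213, 0.0851 and 0.0812.

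In the other gates Rps27l was not called. Tregs had 117 and 141 CPM in control skins and 210 and 189 CPM in tumors (log2 0.57, SE 0.219, adjusted p = 0.237 by edgeR). Macrophages had 224 and 225 CPM against 265 and 273 CPM, NK cells 92.2 and 95.7 CPM against 78.3 and 100.4 CPM, and cDC2 273 and 372 CPM against 299 and 280 CPM. Its highest level was in mDC, with 353 and 553 CPM in control skins and 1332 and 1509 CPM in tumors, from 28 and 37 UMIs in the control skins. The cDC1, at 361 and 231 CPM in control skins and 401 and 541 CPM in tumors, and the cDC2 reached into the range of the control mDC. Other p53 target genes fixed as a list of 11 showed 1 of 9 tested higher and 1 lower in CD8 T cells, Pmaip1 at log2 1.20 and Trp53inp1 at -1.50. In cDC2 Pmaip1 was higher and Mdm2 lower of 8 tested, and in CD4 T cells Pmaip1 was higher of 9. In these gates 7.85%, 12.5% and 7.36% of all genes were called, so counts this small say nothing of the list.

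None of 11 members with defined roles passed the test between the groups. Rplp0, the scaffold of the ribosomal stalk, was at 1959 and 1702 CPM in control skins and 2950 and 2563 CPM in tumors in CD8 T cells (log2 0.47, SE 0.219, adjusted p = 0.226 by edgeR). Its partners Rplp1 and Rplp2 gave log2 0.20 and 0.07. Rps19, mutated in Diamond-Blackfan anemia, had 1791 and 1548 CPM against 2683 and 2404 CPM in the same gate (log2 0.48, SE 0.216, adjusted p = 0.207). For Rplp0 and Rps19 the tumors lay above the control skins, but neither passed the test. Rpl5 and Rpl11, which with 5S RNA bind Mdm2 when ribosome assembly fails, gave log2 0.00 and 0.29, and the S6 kinase substrate Rps6 gave 0.15. Rps14 gave 0.02, Rpl4 0.14, Rps3 0.08 and Rpl13a -0.04. In cDC2 Rpl11 had the largest value of these roles, 1459 and 1382 CPM in control skins and 2172 and 2017 CPM in tumors (log2 0.33, SE 0.150, adjusted p = 0.187).

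Whether the tumor effect differed between gates was tested as an interaction with the library as a block. Of 83 members none was called between CD8 T cells and macrophages, where 1.18% of all genes were, with 7 members at an unadjusted p under 0.05. None of 82 was called between NK cells and macrophages (background 0.333%, 0 members under 0.05), and none of 82 between NK cells and CD8 T cells (background 0.987%, 8 members under 0.05). The members' median effect was 0.25 on the log2 scale higher in CD8 T cells than in macrophages, and -0.15 for NK cells relative to CD8 T cells. For no member was the tumor effect shown to differ between these gates.

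Members were also tested between cell types, where in some pairs a larger share of all genes was called than between tumor and control skin. These fits were paired by library and those of tumor against control skin were not. The counts of the 2 kinds of test therefore cannot be compared directly. In cDC2 69 of 82 members were higher than in macrophages and 0 lower, in paired edgeR fits over the 4 libraries, where 6.29% of all genes were higher and 7.98% lower. The values ran from 0.21 on the log2 scale for Rps29 to 0.79 for the large subunit protein Rpl14 (SE 0.125, adjusted p = 0.00885). The count fell to 14 without control skin replicate 2, to 7 without tumor replicate 1 and to 6 without tumor replicate 2. In these fits 277 of 9319, 217 of 8026 and 206 of 9351 genes were higher. The member median was 0.55, 0.50 and 0.50 on the log2 scale, beside 0.55 with all libraries. Without control skin replicate 1 the count was 72, where 557 of 10125 genes were higher. In CD8 T cells 31 of 82 members were higher than in macrophages and 1 lower, where 23.6% of all genes were higher and 26% lower. With total UMIs in place of TMM factors 68 members were higher, as were 3427 of 10104 genes. With TMM factors the count fell to 17 without control skin replicate 2, where 1877 of 10475 genes were higher. It was 15 without tumor replicate 2, where 1833 of 10170 genes were higher. NK cells and CD8 T cells differed in 0 members higher and 1 lower (6.98% and 5.3% of all genes). This was Rpl13a at log2 -0.75 (SE 0.150, adjusted p = 0.0114 by edgeR). Without control skin replicate 2 it stood at -0.72 and did not pass.

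Scaling each library to its summed ribosomal protein UMIs showed which members departed from the group. Between CD8 T cells and macrophages 6 members were then higher and 8 lower, where 13.6% of all genes were higher and 34.5% lower. Rpl22l1, the paralog of the RNA-binding Rpl22, was at 578 and 520 CPM in control skins and 669 and 569 CPM in tumors in CD8 T cells, and at 236, 186, 223 and 241 CPM in macrophages. It was 0.79 higher on the log2 scale (SE 0.156, adjusted p = 0.00519 by edgeR). Rps15a was 0.76 higher, Rpl13a 0.74 and Rpl12 0.45, while Rps29 was 0.63 lower than in macrophages after this scaling (log2 -0.63) and Rps27l stood at -1.52 (SE 0.203, adjusted p = 0.000966). Rpl22 itself was at 1079 and 1015 CPM in control skins and 1433 and 1194 CPM in tumors in CD8 T cells and did not pass this test.

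Neutrophils held fewer UMIs of the group, and unevenly so. Of 82 members 0 were higher and 78 lower than in macrophages with TMM factors, where 22.3% of all genes were higher and 29.8% lower, with a member median of -1.58. Scaled to the summed members, 3 were higher and 10 lower, where 45.4% of all genes were higher and 6.78% lower. The 3 were Rps9 at log2 1.27 (SE 0.324, adjusted p = 0.000252), Rps27 at 1.43 and its near-identical copy Rps27rt at 1.45. Rps9 held 1379 and 1398 CPM in control skins and 1481 and 1162 CPM in tumors in neutrophils, against 1961, 1692, 2000 and 2025 CPM in macrophages, so it lay nearer to macrophages than the rest. Rpl10a (-1.08), Rps27l (-0.997), Rpl3 (-0.97), Rps4x (-0.95), Rps18 (-0.89), Rpl12 (-0.88), Rpl35 (-0.86), Rps20 (-0.82) and Rpl4 (-0.79) were among the 10 lower than the group. Control skin replicate 1 had 15 neutrophils.

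**Figure D4:**
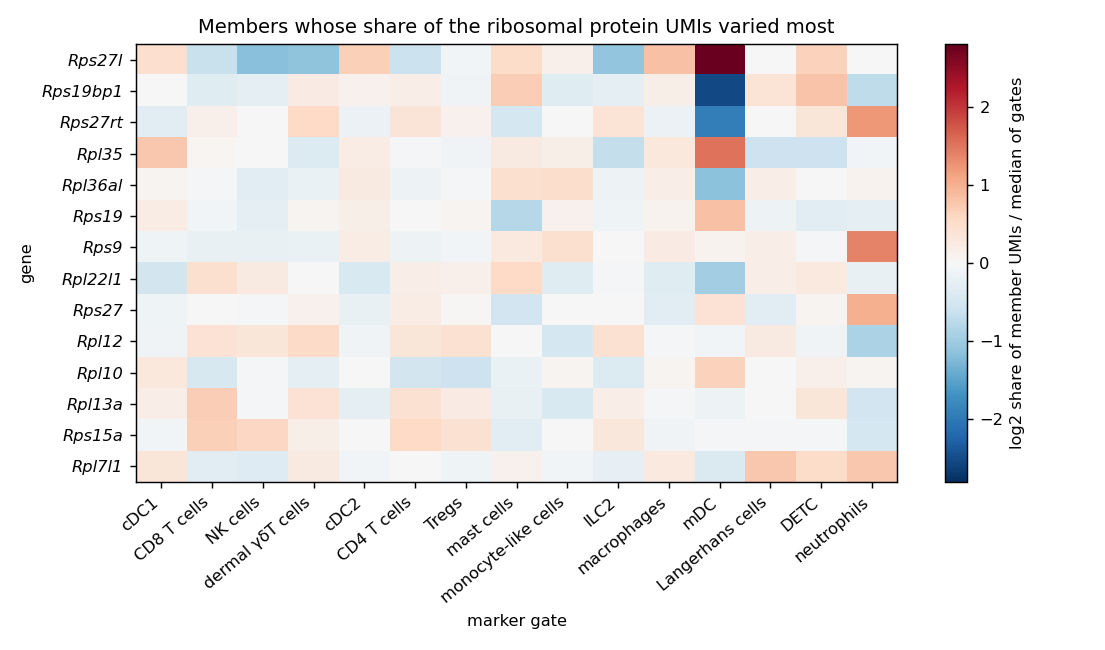
Share of the ribosomal protein UMIs held by a member (color, log2 over its median among the gates) in 15 marker gates (x axis), for the 14 members with at least 3000 UMIs whose share varied most (y axis), over libraries that held 20 or more cells of the gate. Rps27l is highest in mDC and Rps9, Rps27 and Rps27rt are highest in neutrophils. The mDC rest on tumor replicate 1 alone, and DETC, ILC2, Langerhans cells and dermal γδT cells on the control skins alone.

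With every library counted, the members whose share of the group varied most between gates were Rpl3l, Rpl39l, Rps27l, Rpl7l1, Rps19bp1 and Rps19. With libraries under 20 cells of a gate left out, Rps27rt and Rpl35 came in place of Rpl7l1 and Rps19, with ranges of 3.16 and 2.18 on the log2 scale against 1.16 and 1.62. The lowest Rps27rt (0.0537%) and the highest Rpl35 (0.911%) were both in mDC, which under this limit rest on tumor replicate 1 alone. Over all immune cells of that library Rps27rt took 0.0356% and Rpl35 0.883%. These ranges thus cannot be told apart from a difference between libraries. With every library counted, the ranges of Rps27rt and Rpl35 were 1.75 and 1.16. Rpl3l had 79 UMIs in macrophages, 31 in monocyte-like cells and 17 in neutrophils, and 0 in CD8 T, CD4 T and NK cells. In neutrophils its 17 UMIs came to a mean of 0.0543% of the members' UMIs, the highest of any gate. Rpl39l had 187 UMIs in DETC, 101 and 86 in the control skins, which held 1308 of the 1327 DETC, and 117 UMIs in macrophages. With the limit of 20 cells, Rps27l ranged from 0.0593% of the members' UMIs in NK cells to 0.909% in mDC, and Rps19 from 0.785% in mast cells to 2.41% in mDC. Rpl7l1 was highest in Langerhans cells at 0.0452% under this limit, and at 0.114% when the tumor libraries with 1 and 3 Langerhans cells were counted. Under the same limit Rps19bp1 ranged from 0.00304% in mDC, from tumor replicate 1 alone, to 0.0304% in DETC, from the control skins alone. ILC2, Langerhans cells and dermal γδT cells also rest on the control skins alone under this limit. This range too cannot be told apart from a difference between libraries.

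A few members differed widely between libraries of the same group. Rpl35 took 0.263% and 0.176% of the members' UMIs in control skins and 0.883% and 0.100% in tumors over all immune cells. Rps27rt took 0.229% and 0.276% in control skins and 0.0356% and 0.268% in tumors, and Rpl10 0.847% and 0.561% against 1.19% and 0.354%. Rps29 took 2.34% and 2.65% against 4.35% and 1.78%. Within 1 cell type the order was the same, as Rps29 took 2.95% and 3.48% in control skins against 5.11% and 2.02% in tumors in macrophages, and 2.23% and 2.35% against 2.83% and 1.24% in CD8 T cells. In each of these the 2 tumors lay on opposite sides of the control skins or apart from each other by more than the control skins were.

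Several of these genes share transcript ends with a copy. Of the 85 members, 21 shared at least 1 stretch of 90 bases within the last 300 bases of their transcripts with another counted gene, and 66 with any other annotated gene, so reads could be split or dropped between copies. Rpl35 shared 95.3% of its stretches, Rps27rt 86.3% with Rps27, Rpl10 80.6% with Rpl10-ps3 and Rps29 none with a counted gene. Rpl13a, named above for CD8 T cells, shared 45.0% with Gm45713, which had at most 0.0711 CPM in any library. In tumor replicate 1, 4 of the 21 sharing members and 3 of 63 others departed from the control mean by more than 0.5 on the log2 scale, and in tumor replicate 2, 3 and 4. The most abundant copies of Rpl35 and Rpl10 moved opposite to the members, while Gm10269, a low copy of Rpl35, was also higher in tumor replicate 1, at 5.54 CPM against 1.80 and 1.37 CPM in control skins. Gm2000, a copy of Rpl35, had 378 and 383 CPM in control skins and 83.4 and 542 CPM in tumors, where Rpl35 had 282, 159, 1139 and 102 CPM. Rpl10-ps3 had 220, 221, 51.7 and 324 CPM, where Rpl10 had 908, 508, 1541 and 361 CPM. The sum of Rpl35 with Gm2000 and Gm10269 was 662, 543, 1228 and 645 CPM, less uneven than Rpl35 alone. That of Rpl10 with Rpl10-ps3 was still uneven, at 1128, 730, 1593 and 685 CPM. Rpl41 with its copy Gm10076 was more uneven than Rpl41 alone, at 2549, 2258, 3385 and 1907 CPM against 2426, 2145, 2651 and 1752 CPM. Wdr89, which shares stretches with Rplp2, had 159, 172, 43.8 and 274 CPM. Rplp2 took 1.42%, 1.40%, 1.36% and 1.22% of the members' UMIs. Levels of these members are uncertain, and whether the counting differed between libraries was not tested. The 64 members that share no such stretch with a counted gene gave a log2 ratio of tumor to control skin of 0.29 in CD8 T cells, 0.34 in cDC2 and 0.01 in macrophages. All members gave 0.29, 0.33 and 0.0015. The 64 still include Rps29, which shares 38.9% of its stretches with annotated genes that were not counted. This comparison therefore cannot show that the summed shares are free of uneven counting.

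**Figure D5:**
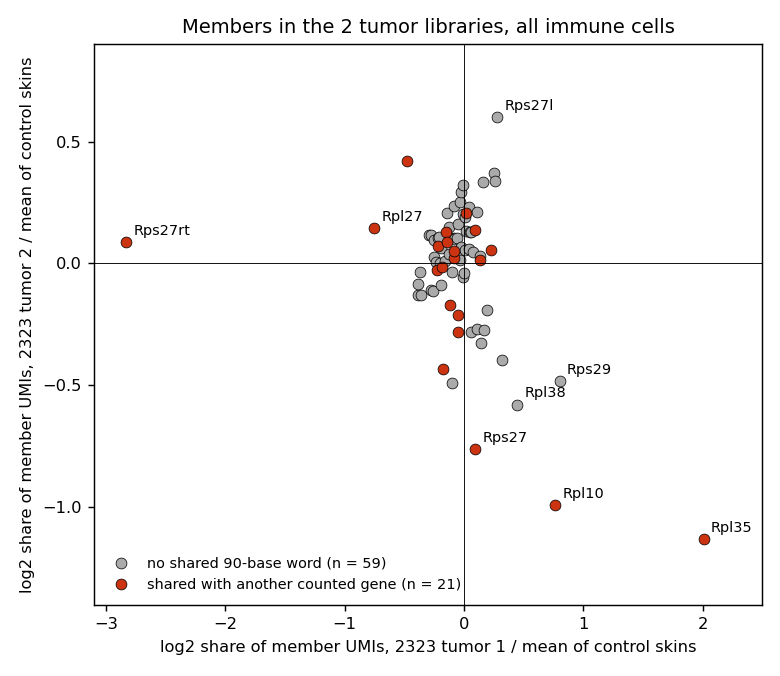
Share of the ribosomal protein UMIs of each member in 2323 tumor replicate 1 (x axis) and replicate 2 (y axis), each as log2 over the mean of the control skins, for the 80 members with at least 10000 UMIs, with those that share a 90-base stretch with another counted gene in red. Rpl35 lies at 2.01 and -1.13, Rpl10 at 0.76 and -0.99, and Rps27rt at -2.83 and 0.09, while most members lie near 0.

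The genes outside the rule whose log2 CPM was most like the log2 summed share, over 44 profiles of gate and library, were Rpsa with r = 0.964, Naca 0.958, Nsa2 0.953, Rack1 0.948, Eef1a1 0.939, Eef1b2 0.939, Psmb1 0.916, Eif3m 0.915, Eif3c 0.914 and Eif3i 0.910, of 6747 genes compared. Rpsa and Rack1 are themselves ribosomal components, Eef1a1 and Eef1b2 elongation factors, the 3 Eif3 genes subunits of an initiation factor and Psmb1 a proteasome subunit. Profiles of a library share its depth and dominant genes, so these values are descriptions. Of 84 members 72 had r over 0.8 with the sum they belong to (median 0.958, against 0.274 over the other genes). The 3 members under 0.3 were Rpl3l at -0.68, Rpl39l at -0.08 and Rps27rt at 0.01, and Rps27l had 0.42.

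Genes that act with the members were read from the lists. Of 21 TOP companions edgeR and DESeq2 called none in any of the 9 gates (2 in cDC2, 2 in mast cells and 1 in Tregs at an unadjusted p under 0.05), with a median log2 fold change of 0.08 in CD8 T cells and -0.15 in macrophages. Of 23 tested ribosome biogenesis genes 1 was higher in CD8 T cells, the snoRNP protein Nhp2 at 1.20 (SE 0.287, adjusted p = 0.0465 by edgeR), and the median was 0.43 beside 0.07 over all genes. DESeq2 called 0 of them in CD8 T cells, so the call of Nhp2 depends on the tool. In cDC2 1 of 24 was lower, the nucleolar GTPase Gnl3 at -1.29, with a median of 0.55. The medians were -0.25 in CD4 T cells and -0.09 in macrophages, where edgeR called none, 0 and 2 had an unadjusted p under 0.05 and DESeq2 called 0 and 1. Neither tool called a gene of this list in the remaining gates. Their medians were 0.52 in Tregs, 0.01 in NK cells and -0.21 in monocyte-like cells. Mast cells and neutrophils, with 4 and 2 genes tested, had 0.51 and 0.34. Of the mTOR and MYC regulators, Myc was higher in CD8 T cells at 2.23 (SE 0.392, adjusted p = 0.0176 by edgeR), Rptor, the raptor subunit of mTORC1, was lower in CD8 T cells and cDC2 at -1.17 and -1.38, and the cap-binding factor Eif4e was lower in cDC2 at -1.78. These were 2 of 14 genes tested in CD8 T cells and 2 of 13 in cDC2. The calls of both lists stand beside 7.85% of all genes in CD8 T cells and 12.5% in cDC2.

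The mitochondrial ribosomal proteins are a separate family that serves the ribosomes of mitochondria. In cDC2 edgeR called 5 of 73 higher and 0 lower, Mrpl17 at 1.43, Mrps12 at 1.32, Mrpl57 at 1.17, Mrps16 at 1.01 and Mrps14 at 0.94, with a median log2 fold change of 0.63 beside 0.13 for the cytosolic members. DESeq2 called 0 of them. Over all genes edgeR called 439 of 8082 higher in this gate and 12.5% in either direction, so a count of 5 is near the background. In CD8 T cells 0 of 74 were called by either tool, 26 had an unadjusted p under 0.05, and the median was 0.65 beside 0.14. Tregs had a median of 0.53 beside 0.11 and CD4 T cells 0.36 beside -0.07, with 14 of 62 and 14 of 72 under 0.05 and none called. The median was 0.20 beside -0.18 in macrophages, 0.17 beside 0.04 in NK cells and 0.09 beside -0.15 in monocyte-like cells. With 13 and 3 genes tested, mast cells had -0.01 beside 0.55 and neutrophils -0.03 beside 0.26. The difference between the families was not tested.

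Genes of the stress that dissociation can induce were called in most tested gates. These include CD8 T cells, cDC2 and mast cells, where the summed share of the members did not overlap between the groups. They also include NK cells, CD4 T cells, Tregs and macrophages, where it overlapped. Of 20 tested, 7 were higher in cDC2, 4 higher and 5 lower in CD8 T cells, 4 higher and 1 lower in NK cells, 5 higher and 1 lower in CD4 T cells, 5 higher in Tregs, 1 higher in macrophages, and of 19 tested 6 were higher in mast cells. Over all genes 12.5%, 7.85%, 3.34%, 7.36%, 0.975%, 0.967% and 3.83% were called in these gates in this order. DESeq2 called 9 in macrophages and 4 to 10 in the other 6. By edgeR the heat shock gene Hspa1a was called in all of these gates but macrophages. Its log2 fold change was 4.21 in CD4 T cells, 4.14 in Tregs, 3.07 in mast cells, 2.97 in CD8 T cells, 2.79 in cDC2 and 2.22 in NK cells. In neutrophils and monocyte-like cells edgeR called none, with 8 and 12 at an unadjusted p under 0.05, and DESeq2 called 0 and 4. Of the sex-linked genes Xist, Ddx3y, Eif2s3y, Kdm5d and Uty none was called in any gate by either tool, with 2 in CD8 T cells and 2 in CD4 T cells at an unadjusted p under 0.05. The part of these genes in the members' values was not tested.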

How the data were processed

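UMI counts per gene and cell were deposited by the authors for 4 droplet 3′ libraries, as raw counts without normalization, doublet removal or pooling. Cell Ranger 7.1.0 and mm10 are named in the submitters' processing notes, and the headers of all 4 matrices name version 7.0.1. How intronic and multiply mapped reads were handled is not given in the sources used here.

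The cell filters used the study's stated minima. Kept cells had 100 or more genes, 1000 or more UMIs, no more than 15% of UMIs from mitochondrial genes, and log10 genes over log10 UMIs from 0.8 upward. Cells entered a gate by minimum UMIs of marker genes and by absence of markers of other lineages. Minima were set once marker distributions were seen and without the members. Of the kept cells, 207 met 2 or more gates and were left out, which also removes doublets of gated types, 302 held collagen, keratin or B cell markers and 4487 met no gate. No doublet caller was run.

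Counts were summed per gate and library and tested with edgeR 4.0.16 in R 4.3.3 (glmQLFit and glmQLFTest after filterByExpr, scaled by TMM). The p-values of a gate were adjusted by Benjamini-Hochberg at 0.05, in gates with at least 20 cells in each library. DESeq2 1.42.0 was an alternative. The study tested single cells with a rank-sum test, in place of which libraries were the replicates here. Fits between gates had the library as a block and were added after seeing the data. Shares are percent of UMIs. Transcript ends and coordinates came from the GENCODE M21 annotation of GRCm38, starts from RefSeq.

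The members and lists were chosen with earlier results of these data known. Genes named were the 5 members with most UMIs, members under 3 UMIs, paralogs, called members, the 6 members whose share of the group varied most between gates, 11 members of defined role, and the 10 other genes most like the summed share. Rpl12, Rps9, Rps15a, Rpl35, Rps29, Rpl14 and others named for differences between gates or libraries were chosen after their values were seen. Alternatives were other scalings, filters, gates and tests, the replicate block and leaving out each library. A few genes are not reported here.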

Additional observations from a re-analysis of the deposited data

Results flagged for a closer look

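In 6 of 15 gates the tumors did not overlap the control skins in the summed share of ribosomal protein UMIs. The difference from the other gates was not tested. With 2 libraries in each group, groups that do not differ fail to overlap with a probability of 0.333, so this count is near that share. All gates also come from the same 4 libraries and are not independent. The tumor mean was higher by 3.24 points in CD8 T cells, by 3.42 points in cDC2, by 2.36 points in mast cells and by 6.12 points in mDC. It was lower in ILC2, at -4.75 points, and in Langerhans cells, at -1.23 points. The tumors held 25 ILC2 and 4 Langerhans cells, and the control skins 9 mDC.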

How the results depend on the processing

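Of 335 alternative values, 284 stayed within the spread between replicates, within 1.5 times the main count or on the same side of the threshold, and none reversed a call. The log2 ratio of summed shares moved beyond that spread in mast cells (-0.0121) and neutrophils (1.08) among cells of at least 5000 UMIs. Leaving out each library in turn gave log2 ratios of 0.10 to 0.46 in CD8 T cells, 0.19 to 0.47 in cDC2, -0.14 to 0.26 in NK cells, -0.12 to 0.25 in CD4 T cells, -0.04 to 0.40 in Tregs and -0.16 to 0.15 in macrophages, so only CD8 T cells and cDC2 of these 6 kept their sign. A group left with 1 library was assumed to vary like the other. Counts of called members from such fits rest on that assumption and need the share of all genes called beside them. In cDC2 that share was larger than the share of members, both without tumor replicate 1 and without tumor replicate 2. It was smaller in NK cells without tumor replicate 1 and in mast cells without tumor replicate 2. The shares were close in NK cells without tumor replicate 2 and in mast cells without tumor replicate 1. Leaving out each library gave 0 to 3 called members in CD8 T cells, 0 to 8 in NK cells, 0 to 12 in cDC2, 0 to 2 in CD4 T cells, Tregs, macrophages, monocyte-like cells and neutrophils, and 0 to 24 in mast cells. Most calls came without 1 of the tumors, and the direction could depend on the tumor left out. Without tumor replicate 1, Rpl35 stood at log2 -1.19 in cDC2 and -1.47 in NK cells. Without tumor replicate 2 it stood at 2.13 and 1.94. The member median in NK cells was -0.14 without tumor replicate 1 and 0.21 without tumor replicate 2. In cDC2 the median stayed above 0 when either tumor was left out, at 0.10 and 0.12. Between gates the same choice gave 16 to 27 members for CD8 T cells against macrophages, 6 to 72 for cDC2 against macrophages, 0 to 1 for NK cells against CD8 T cells and 0 to 1 for 2 interactions, of CD8 T cells with macrophages and with NK cells. Without a filter on low counts 3 members were called in CD8 T cells and 2 each in NK cells, cDC2, Tregs and monocyte-like cells. The count was 1 each in CD4 T cells, mast cells and neutrophils. Over all genes 732 were then higher and 833 lower of 16741 in CD8 T cells. These counts were 294 and 221 of 14302 in NK cells, 783 and 985 of 16169 in cDC2 and 413 and 445 of 15532 in Tregs. Monocyte-like cells had 212 and 87 of 15987 and CD4 T cells 707 and 637 of 16237. Mast cells had 141 and 65 of 11793 and neutrophils 17 and 9 of 12151. With total UMIs in place of TMM factors 1 member was called in cDC2, where 777 genes were higher and 397 lower of 8082. In CD8 T cells against macrophages 69 members were called, where 3427 genes were higher and 2138 lower of 10104. In the interaction of NK cells and CD8 T cells 1 was called, for which the count over all genes is not given here. Scaling to the summed members left 0 in CD8 T cells, 14 in CD8 T cells against macrophages, 2 in cDC2 against macrophages and 13 in neutrophils against macrophages, since it takes out the change that the members share. Over all genes that scaling called 193 higher and 3205 lower of 9278 in cDC2 against macrophages. In CD8 T cells it called 189 higher and 418 lower of 8568. Without dividing cells 0 members were called in CD8 T cells, where 244 genes were higher and 264 lower of 7440. The adjusted p of Rps27l in CD8 T cells ran from 0.000356 to 0.261 over its alternatives. Except where stated, the cause was not tested.

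The replicate numbers were not shown to pair the samples, with a correlation of the deviations of replicates between -0.17 and 0.13 over all genes of a gate. With the replicate block 0 members were called in CD8 T cells, where 217 genes were higher and 342 lower of 8568. Rps27l had a log2 fold change of 1.07 there, with an adjusted p of 0.0529 by edgeR. In NK cells 1 member was called, where 190 genes were higher and 202 lower of 5807. Over members alone the correlation was 0.35 to 0.49 in 8 gates and -0.12 in neutrophils. A crossed block, added after seeing the data, called 1 member in CD8 T cells and 0 in the other 8 gates. Over all genes it called 300 higher and 479 lower of 8568 in CD8 T cells.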
